A study of Mus musculus with 26 samples.

Results

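T-box factors are transcription factors that share a DNA-binding region, the T-box. The 8 genes described here are Tbx1, Tbx2, Tbx3, Tbx4, Tbx5, Tbx15, Tbx18 and Tbx20, and they were taken as every row of the 2 deposited gene count tables that bears one of these names. They make up 8 of the 41442 gene rows in each table.

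The study profiled tomato-labelled cells of the mouse fetal mesonephros and neonatal uterus. The mesonephros libraries came from sorted Gli1+ cells of Gli1-CreER; Rosa-Tomato embryos, female or male, at E14.5 or E16.5 (embryonic days). The uterine libraries came from sorted cells at E19.5, either Gli1+ (Gli1-CreER; Rosa-Tomato) or Amhr2+ (Amhr2-Cre; Rosa-Tomato). Each of these 6 groups had 3 RNA libraries, and 8 further libraries measured open chromatin in the fetal Gli1+ cells by ATAC-seq, 2 for each sex and age. Per the labels, dams carrying embryos of either line received tamoxifen, the drug that activates CreER, (1 mg each) on E12.5 and again on E13.5. The label is therefore inherited: a Gli1+ cell is one whose Gli1 promoter drove CreER around those days, or a descendant of one, and an Amhr2+ cell is one in whose lineage the Amhr2 promoter drove Cre. The labels do not say whether replicate libraries came from separate animals or litters, so the p-values measure the spread between these libraries, which may be technical. Cells were sorted in bulk, so that fewer cells of a type and less RNA per cell cannot be told apart.

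The T-box binds a short DNA element, and family members act as activators or repressors depending on the protein and its partners. Tbx2 and Tbx3 are close relatives known mainly as repressors, with roles in cell division and cell fate, and both are known in the mesenchyme around the ureter. Tbx18 is a repressor of the Tbx15, Tbx18 and Tbx22 subfamily and is required for the mesenchyme that becomes ureteric smooth muscle. Tbx4 and Tbx5 are known for limb and lung mesenchyme, Tbx1 for the pharyngeal arches, Tbx15 for skeletal and dermal mesenchyme, and Tbx20 for the heart.

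Total counts ran from 23382983 to 64602477 in the 12 fetal libraries and from 28709191 to 37541045 in the 6 uterine ones. A count of 3 corresponded to 0.0485 to 0.126 CPM (the count scaled to the library total) in the fetal table and to 0.0777 to 0.102 CPM in the uterine table. Every pair of replicates differed beyond counting noise (chi-square per degree of freedom 3.60 to 91), so no library was a duplicate. The 5 sex-linked genes examined fell on the side the fetal labels give, with no overlap. All 6 mesenchyme markers were at 1 CPM or more in each group, with a summed level of 25670 to 46380 CPM in the fetal libraries, 21580 to 23410 CPM in Amhr2+ and 39440 to 43630 CPM in uterine Gli1+ libraries. Pax2, Nr5a1, Cyp17a1, Ptprc, Tubb3 and Sox10, defining markers of duct, gonadal, immune and neural cells, were each under 1 CPM in every group. Cd68, Krt18, Upk3b, Kdr and Foxl2, other markers of immune, epithelial, mesothelial, endothelial and gonadal cells, were not at 0, with the highest group mean among them 99.4 CPM for Foxl2 in Amhr2+ cells.

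Tbx3 and Tbx2 dominated the 8 members. Per kilobase of annotated exon, the mean Tbx3 level was 54.5 ± 2.47 CPM per kb in E14.5 females and 50.7 ± 8.40 in E14.5 males (SD, n = 3 here and below). At E16.5 it was 43.8 ± 6.24 CPM per kb in females and 42.7 ± 1.92 in males. Tbx2 came next, at 31.6 and 33.2 CPM per kb in females and males at E14.5 and at 13.9 and 17.0 CPM per kb at E16.5. No other member reached 0.3 CPM per kb in a fetal group. Tbx3 supplied 63.1%, 60.2%, 75.3% and 71.0% of the summed per-kilobase level of the 8 genes in E14.5 females, E14.5 males, E16.5 females and E16.5 males, and Tbx2 supplied 36.5%, 39.4%, 23.9% and 28.2%. In the uterine table, which was normalized separately, Tbx3 stood at 40.1 CPM per kb in Amhr2+ and 35.7 in Gli1+ cells and made up 82.4% and 83.2% of the sum, and Tbx2 stood at 8.14 and 5.76 CPM per kb, or 16.7% and 13.4%. After these 2 came Tbx18 in uterine Gli1+ cells, at 1.27 CPM per kb or 2.95% of the sum, and Tbx4 in Amhr2+ cells, at 0.328 CPM per kb.

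Low-count filtering left 5 of the 8 members in the fetal test (Tbx2, Tbx3, Tbx4, Tbx15 and Tbx18) and 4 in the uterine test (Tbx2, Tbx3, Tbx4 and Tbx18). The others are given below by their counts.

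**Figure D1:**
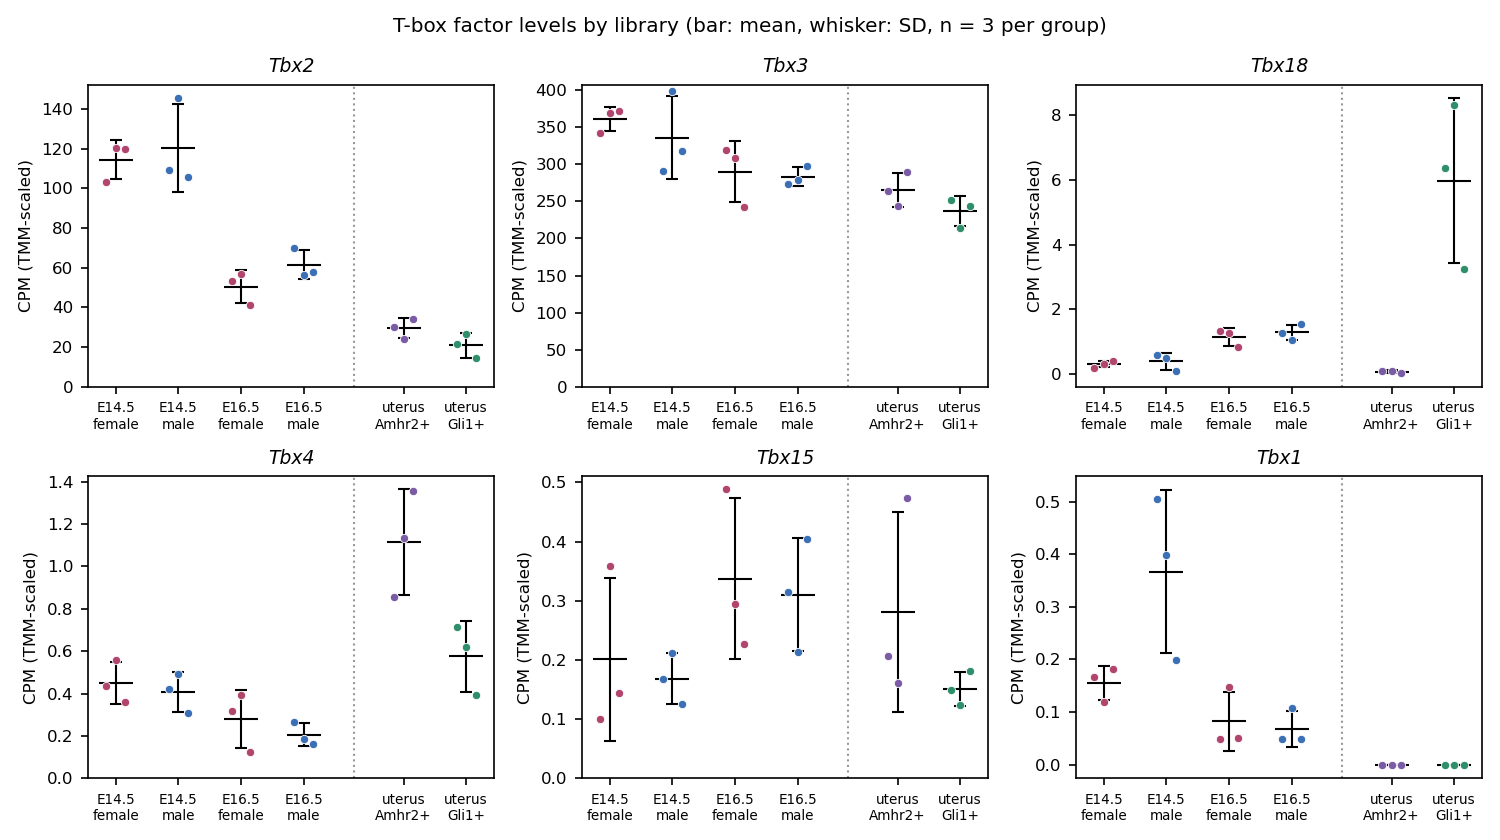
Level of Tbx2, Tbx3, Tbx18, Tbx4, Tbx15 and Tbx1 in each RNA library, in CPM. Each point is a library, bars are group means and whiskers SD (n = 3), and the dotted line separates the fetal table from the uterine table, which were normalized separately; Tbx2 is lower in all 6 libraries at E16.5 than in all 6 at E14.5, and Tbx18 is high in the 3 uterine Gli1+ libraries.

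The first question the design poses is how these genes change between E14.5 and E16.5 in Gli1+ mesonephric cells. Tbx2 fell in both sexes, Tbx18 rose in both sexes, and Tbx3 fell by a smaller amount in females. In females 3 of the 5 tested members were called at an adjusted p under 0.05, 1 risen and 2 fallen, where 39.6% of all 17858 tested genes were called, 21.0% risen and 18.6% fallen. In males 2 of 5 were called, 1 in each direction, where 23.3% of genes were called, 13.1% risen and 10.2% fallen. These shares are the background against which so few members have to be read.

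Tbx2, a repressor, measured 103, 120.2 and 120 CPM in the 3 female libraries at E14.5 and 53.5, 56.8 and 41.1 CPM at E16.5. In males it measured 109.5, 146 and 106 CPM at E14.5 and 70.1, 56.6 and 58.0 CPM at E16.5. Every E14.5 library was above every E16.5 library of either sex. The group means went from 114 ± 9.77 to 50.5 ± 8.28 CPM in females and from 120.3 ± 22.2 to 61.6 ± 7.46 CPM in males. In females Tbx2 fell by 1.18 on the log2 scale (SE 0.146, 2.27-fold, edgeR adjusted p = 4.85e-05), and in males it fell by 0.97 (SE 0.145, 1.96-fold, edgeR adjusted p = 0.000344).

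Tbx3, the closest relative of Tbx2 in this set, was more abundant per kilobase, and its age difference was smaller. It measured 342, 369 and 372 CPM in E14.5 females against 319, 308 and 243 CPM in E16.5 females, groups that did not overlap. In males it measured 291, 398 and 318 CPM at E14.5 and 273, 279 and 297 CPM at E16.5, where the groups overlapped. In females Tbx3 fell by 0.32 on the log2 scale (SE 0.112, 1.25-fold, edgeR adjusted p = 0.0370), and the male difference was -0.25 (SE 0.112, adjusted p = 0.129). The female call was not robust: the adjusted p was 0.0927 with no low-count filter, and 0.0529, 0.0963, 0.0999 and 0.147 without E14.5 female replicate 1, 2 or 3 or E16.5 female replicate 3, respectively.

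The unequal change of this pair showed in the ratio of their counts within each library, a measure that needs no scaling between libraries and that was chosen after the values had been seen. Tbx3 counts were 3.32, 3.07 and 3.10 times Tbx2 counts in E14.5 females and 2.66, 2.73 and 3.01 times in E14.5 males. At E16.5 the female ratios were 5.97, 5.42 and 5.91, and the male ones 3.89, 4.93 and 5.13. All 6 libraries at E16.5 were above all 6 at E14.5. The mean log2 ratio was 0.79 higher at E16.5, given as a description with no test because these values prompted the measure. Leaving out single libraries gave 0.76 to 0.86. The ratio in uterine cells was 8.80, 10.01 and 8.46 for Amhr2+ libraries against 11.8, 7.98 and 16.9 for Gli1+ ones, which overlapped (log2 difference -0.36).

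Tbx18 was low at E14.5 and rose. Its counts were 6, 8 and 11 in E14.5 females and 55, 51 and 33 in E16.5 females, or 0.200, 0.318 and 0.398 against 1.35, 1.26 and 0.833 CPM. In males the counts were 14, 21 and 6 at E14.5 and 53, 40 and 95 at E16.5, or 0.589, 0.493 and 0.108 against 1.28, 1.07 and 1.53 CPM. Every E16.5 library was above every E14.5 library. The log2 difference was 1.91 in females (SE 0.450, 3.75-fold, edgeR adjusted p = 0.00355) and 1.86 in males (SE 0.407, 3.64-fold, edgeR adjusted p = 0.00332). The ratio of summed counts was 3.80 in females (95% exact interval 2.47 to 6.07) and 3.97 in males (2.82 to 5.71), intervals that cover counting error only.

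Marker lists of other cells moved over the same interval. The 6 smooth muscle markers summed to 302 to 326 CPM in E14.5 females and 465 to 566 CPM in E16.5 females, and to 606 to 888 CPM and 1715 to 2891 CPM in males, with Acta2 the most abundant. List folds were taken between the middles of the group ranges. The summed duct epithelium list was 1.58 times lower in females and 1.66 times lower in males at E16.5. The endothelium list was 1.66 times lower in females and 1.25 times lower in males. The immune list was 1.31 times lower in females and 1.76 times lower in males. The male immune ranges overlapped, with 42.1 to 58.0 CPM at E14.5 and 11.6 to 45.4 CPM at E16.5. Female immune ranges overlapped too, with 56.1 to 67.3 CPM and 26.3 to 67.7 CPM. The mesenchyme list itself was 1.43 times higher in females and 1.36 times higher in males at E16.5. The part of these lists in the changes of Tbx2, Tbx3 and Tbx18 was not tested.

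**Figure D2:**
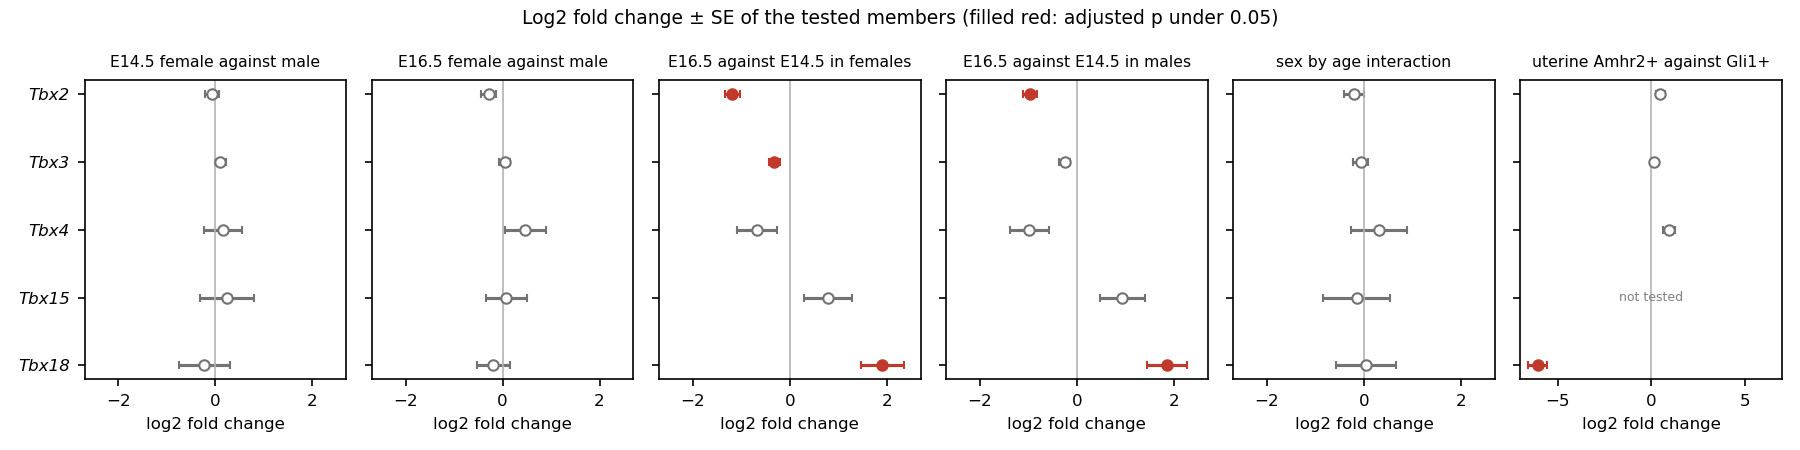
Log2 fold change (points) with its standard error (whiskers) for the members that passed the low-count filter, in the 6 comparisons. Filled red points have an edgeR adjusted p under 0.05; the calls are Tbx2 and Tbx18 in both age comparisons, Tbx3 in the female one, and Tbx18 in the uterus, whose panel has a wider axis.

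Between the sexes no member was called. At E14.5, 0 of the 5 tested members were called by edgeR's quasi-likelihood test, 0 had an unadjusted p under 0.05 and DESeq2 called 0, where edgeR called 6.28% of all tested genes, 2.59% higher in females and 3.69% higher in males. At E16.5 the numbers were again 0, 0 and 0, where 27.3% of all tested genes were called, 13.2% higher in females and 14.1% higher in males. The female-minus-male log2 difference of Tbx2 was -0.07 (SE 0.143) at E14.5 and -0.29 (SE 0.145) at E16.5, and that of Tbx3 was 0.10 (SE 0.112) and 0.04 (SE 0.112). For Tbx18 it was -0.23 (SE 0.526) and -0.19 (SE 0.346), so these few counts leave a wide margin. The test of whether the age change differed between the sexes also called 0 of 5 members (0 at an unadjusted p under 0.05, 0 by DESeq2), where 10% of all genes were called, 4.66% with a positive and 5.36% with a negative sign; the difference was -0.21 for Tbx2 (SE 0.204) and 0.05 for Tbx18 (SE 0.617). The sex and age comparisons share libraries.

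In the neonatal uterus the question is how Amhr2+ and Gli1+ cells differ. Tbx18 was far higher in the Gli1+ libraries. Its counts were 4, 4 and 1 in the Amhr2+ libraries and 214, 268 and 108 in the Gli1+ libraries, or 0.104, 0.108 and 0.0339 against 6.37, 8.29 and 3.26 CPM. Every Gli1+ library was far above every Amhr2+ library. The Amhr2+ minus Gli1+ log2 difference was -6.07 (SE 0.509, edgeR adjusted p = 0.000147), a 67.2-fold higher level in Gli1+ cells and rank 3 of 16195 tested genes counted from the most Gli1+-biased. The 590 summed counts against 9 gave a ratio of 69.6 with a 95% exact interval of 36.4 to 153. Tbx18 was the only 1 of the 4 tested members called, where 23.9% of genes were called, 13.7% higher in Gli1+ and 10.1% higher in Amhr2+ cells.

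The promoter of Tbx18 is shown because this gene had the largest difference among the tested members. Beside it is that of Tbx20, whose promoter lay inside an ATAC peak. Of the fetal groups, Tbx20 had 7 counts in E14.5 males and 0 in the others. Both are the 250 bases before the start site in RefSeq (build GRCm38.p6), on the minus strand, at chr9:87731261-87731510 and chr9:24774304-24774553. Capitals mark bases inside a peak of the deposited list. The peaks come from fetal Gli1+ cells, and open chromatin was not measured in the uterine cells.
Tbx18: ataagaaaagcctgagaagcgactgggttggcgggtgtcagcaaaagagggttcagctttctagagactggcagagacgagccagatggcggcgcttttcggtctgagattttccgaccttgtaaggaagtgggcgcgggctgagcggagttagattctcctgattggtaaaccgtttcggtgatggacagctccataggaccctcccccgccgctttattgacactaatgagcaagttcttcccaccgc
Tbx20: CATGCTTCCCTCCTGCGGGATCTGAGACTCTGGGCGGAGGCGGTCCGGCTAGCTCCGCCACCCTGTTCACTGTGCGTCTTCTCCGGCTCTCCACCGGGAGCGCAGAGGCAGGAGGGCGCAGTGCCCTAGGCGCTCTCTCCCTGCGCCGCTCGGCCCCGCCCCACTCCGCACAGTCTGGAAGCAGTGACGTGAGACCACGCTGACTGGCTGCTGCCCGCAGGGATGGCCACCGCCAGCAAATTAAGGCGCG
None of the 250 Tbx18 bases lay in a peak, although a peak of 611 bp was centred 587 bp after the start, and all 250 Tbx20 bases did. Neither sequence holds the T-box half-site AGGTGTGA or the GLI core TGGGTGG on either strand, which 1.12% and 8.11% of 32851 promoters of the same length hold. The RefSeq table matched 4 of the 8 members, with 5 entries, and none of these held either motif.

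The other tested members did not pass the threshold in the uterus. Tbx4, a limb and lung factor, had 33, 42 and 40 counts in Amhr2+ libraries against 24, 20 and 13 in Gli1+ ones, or 0.855, 1.13 and 1.36 against 0.715, 0.619 and 0.392 CPM. The groups did not overlap, and the log2 difference was 0.94 (SE 0.313, edgeR adjusted p = 0.0607). Scaling by library size alone gave 1.02 with an adjusted p of 0.0431, and so added Tbx4 to the calls. Tbx2 measured 30.1, 24.3 and 34.2 CPM in Amhr2+ and 21.4, 26.9 and 14.4 CPM in Gli1+ cells (log2 difference 0.50, SE 0.224, adjusted p = 0.151). Tbx3 measured 264.5, 243 and 289 against 252, 214 and 244 CPM (0.17, SE 0.0864, adjusted p = 0.197). Both pairs of groups overlapped.

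Marker lists also differed between the uterine groups. The 6 mesenchyme markers summed 1.85 times higher in Gli1+ cells, between the middles of the group ranges. The 6 smooth muscle markers summed to 2119 to 2339 CPM in Gli1+ against 1121 to 1768 CPM in Amhr2+ libraries. The 5 endothelial markers summed to 36.7 to 44.8 CPM against 23.8 to 29.5 CPM, and the 6 duct epithelium markers to 17.9 to 28.8 CPM against 49.2 to 49.7 CPM. The largest fold between summed lists was 2.12, for duct epithelium. Sums do not show single markers: Pecam1, Cdh5 and Tek were under 1 CPM in Amhr2+ cells, and all 5 endothelial markers were at 1 CPM or more in Gli1+ cells. The part of these differences in the Tbx18 result was not tested. An antisense transcript overlaps the 5′ end of Tbx18 in the annotation, and it had 7, 11 and 4 counts in the Gli1+ and 0, 2 and 0 counts in the Amhr2+ libraries.

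Tbx15 and Tbx22 are the subfamily relatives of Tbx18, and Tbx22, a gene of palate mesenchyme on the X chromosome, is not one of the 8 members and was singled out after its values were seen. Tbx15 counts were 3, 9 and 4 in E14.5 females, 4, 9 and 7 in E14.5 males, then 20, 12 and 9 in females at E16.5 and 13, 8 and 25 in males of that age. The male groups did not overlap in CPM and the female groups did. The age difference on the log2 scale was 0.78 in females (SE 0.495, edgeR adjusted p = 0.226) and 0.94 in males (SE 0.467, adjusted p = 0.168), neither called. In the uterus Tbx15 was not tested, with 8, 6 and 14 counts in Amhr2+ libraries against 5, 4 and 6 in Gli1+ ones.

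Tbx22 rose with age in both sexes. Its counts were 2, 0 and 2 in E14.5 females and 53, 52 and 71 in E16.5 females, and 5, 12 and 16 in E14.5 males and 21, 48 and 83 in E16.5 males. The E14.5 and E16.5 libraries did not overlap. The log2 difference was 4.82 in females (SE 0.562, edgeR adjusted p = 7.59e-06) and 1.96 in males (SE 0.388, adjusted p = 0.00157), with summed-count ratios of 30.1 (11.5 to 111.5) and 3.99 (2.72 to 6.004). The difference between the sexes in this change was 2.86 on the log2 scale (SE 0.789, adjusted p = 0.0293). That call rests on 4 counts in E14.5 females, and it was lost without any 1 of 6 libraries: leaving out an E14.5 female library (replicate 1, 2 or 3) gave an adjusted p of 0.0644, 0.0896 or 0.0552, leaving out an E14.5 male library (replicate 2 or 3) gave 0.0640 or 0.0781, and leaving out E16.5 female replicate 3 gave 0.0515. In the uterus the 3 Amhr2+ libraries held 11, 10 and 4 Tbx22 counts, and the Gli1+ ones held 9, 9 and 17.

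Tbx4 in the mesonephros measured 0.434, 0.557 and 0.362 CPM in E14.5 females, 0.421, 0.493 and 0.307 in E14.5 males, then 0.318, 0.394 and 0.126 in females at E16.5 and 0.266, 0.187 and 0.162 in males of that age. The male ages did not overlap and the female ages did. The age difference was -0.67 on the log2 scale in females (SE 0.407, edgeR adjusted p = 0.206) and -0.98 in males (SE 0.406, adjusted p = 0.0966), neither called.

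Tbx1, the pharyngeal factor, had 5, 3 and 5 counts in E14.5 females, 12, 17 and 11 in E14.5 males, then 2, 6 and 2 in females at E16.5 and 2, 4 and 3 in males of that age. The low-count filter removed it. In the fit without that filter, the male age difference was -2.34 on the log2 scale (adjusted p = 0.00411), with 40 counts at E14.5 against 9 at E16.5 and a count ratio of 5.13 (2.45 to 12.03). Tbx1 was also called in males without E14.5 male replicate 3 or any 1 of the 3 E16.5 male libraries, where it passed the filter. The female age difference in the fit without the filter was -0.88 (adjusted p = 0.444), and the E14.5 sex difference was -1.14 (adjusted p = 0.421). All 6 uterine libraries had 0 Tbx1 counts, which allows up to 0.0777 to 0.102 CPM per library.

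Tbx5, the limb and heart relative of Tbx4, had 4, 1 and 4 counts in E14.5 females, 3, 4 and 1 in E14.5 males, then 2, 0 and 2 in females at E16.5, 0, 1 and 0 in males of that age, and 0 in all 6 uterine libraries. Tbx20, the heart factor, had 3 and 4 counts in E14.5 male replicates 2 and 3 and 0 in the other 16 RNA libraries. The low-count filter removed both. In the fit without it neither was called in any fetal comparison: for the male age difference Tbx5 had 8 counts against 1 (unadjusted p = 0.0330, edgeR adjusted p = 0.163) and Tbx20 had an unadjusted p of 0.0165 and an adjusted p of 0.0984, and for the E14.5 sex difference Tbx20 had 0.0421 and 0.375.

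Of the members, 4 lie in 2 gene pairs in the mm10 annotation. Tbx2 (chromosome 11, 85832551 to 85841948) and Tbx4 (chromosome 11, 85886422 to 85916097) lie 44.5 kb apart on the plus strand, and Tbx3 (chromosome 5, 119670669 to 119684724) and Tbx5 (chromosome 5, 119834663 to 119885219) are separated by 149938 bp, also on the plus strand. The neighbours had very different levels: Tbx2 was at 31.6 CPM per kb against 0.133 for Tbx4 in E14.5 females, and Tbx3 at 54.5 against 0.0227 for Tbx5. Tbx18 (chromosome 9, 87702800 to 87731260), Tbx20 (chromosome 9, 24718138 to 24774303) and Tbx1 (chromosome 16, 18580979 to 18590671) are on the minus strand, and Tbx15 (chromosome 3, 99253760 to 99354259) on the plus strand.

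Next to Tbx3, 43.1 kb before its start and on the opposite strand, lies Tbx3os1 (chromosome 5, 119570133 to 119627593), a long non-coding gene singled out after its values were seen. It was about as abundant per kilobase as Tbx2 at E14.5, with 36.8 CPM per kb in females and 32.3 in males. Its level was 127, 115.8 and 106 CPM in E14.5 females against 41.3, 42.6 and 33.1 CPM in E16.5 females, and 108, 109 and 89.8 CPM in E14.5 males against 27.9, 25.3 and 16.7 CPM in E16.5 males. Every library of the later age was below every library of the earlier age. In females Tbx3os1 fell by 1.58 on the log2 scale (SE 0.169, edgeR adjusted p = 2.19e-05), and in males it fell by 2.14 (SE 0.173, adjusted p = 2.99e-06). At E16.5 it was higher in females than in males by 0.75 (SE 0.170, adjusted p = 0.00644), with no overlap, and at E14.5 the difference was 0.19 (adjusted p = 0.614).

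The age change of Tbx3os1 was not called as different between the sexes (0.56, SE 0.236, adjusted p = 0.174), except with a replicate block, where it was 0.58 with an adjusted p of 0.00204. In the uterus it measured 25.2, 21.2 and 32.2 CPM in Amhr2+ and 26.5, 35.2 and 23.1 CPM in Gli1+ cells, which overlapped (log2 difference -0.11, adjusted p = 0.713). The fetal kit does not mark strand, and 2 other annotated transcripts with group means of at most 1.86 CPM overlap Tbx3os1, so reads there cannot be told apart by strand. It does not overlap Tbx3 itself.

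**Figure D3:**
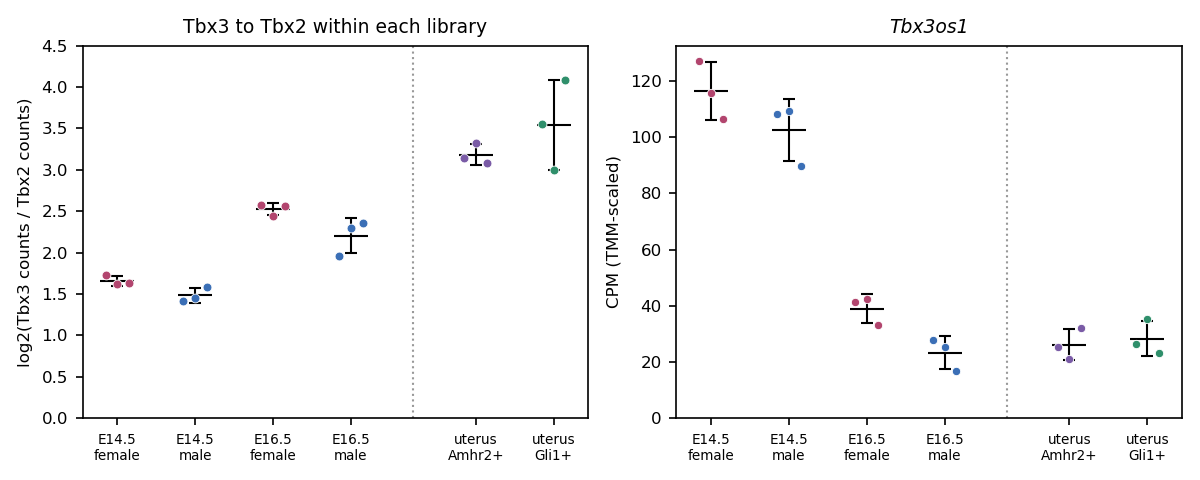
Left, log2 of the ratio of Tbx3 to Tbx2 counts in each library; right, Tbx3os1 in CPM. Points are libraries in the 6 groups, with the uterine table normalized separately; the ratio is higher and Tbx3os1 lower in all 6 libraries at E16.5 than in all 6 at E14.5.

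Open chromatin was deposited as 1 list of 71040 peak positions over all ATAC libraries, with no height and no sample, so it shows where peaks were called and no difference between groups. Tbx3 and Tbx2, the most abundant members, had 12 and 10 peaks within 50 kb of their start, where the median tested gene had 5 and the 90th percentile was 11. A peak of 640 bp was centred 32 bp after the Tbx2 start, and one of 803 bp was centred 54 bp after the Tbx3 start. Tbx1 had 9 peaks within 50 kb, Tbx4 had 7, Tbx18 had 6, Tbx5 and Tbx15 had 2 each and Tbx20 had 1. The windows of Tbx2 and Tbx4 overlap, so the peaks of 202, 185, 668 and 234 bp between these genes were counted for both.

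Peak calls and RNA did not run in parallel for each gene. Within 1 kb of an annotated start site, Tbx3, Tbx15 and Tbx18 had 2 peaks each, Tbx2 and Tbx20 had 1 each, and Tbx1, Tbx4 and Tbx5 had 0, where 89.1% of 14590 tested genes had at least 1. Tbx1, Tbx5 and Tbx20 were not among those tested genes. In the fetal cells that gave the peaks, Tbx20 had 7 counts in E14.5 males and 0 in the other groups. It had a peak of 305 bp centred 111 bp before its start, as shown by the capitals in the sequence above. Tbx4, with more counts, had its nearest peak inside the gene 8853 bp after the start of the gene row. That peak, at chr11:85895197-85895353, lies nearer to the RefSeq promoter of Tbx4, which is inside the gene at chr11:85896515-85896764.

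**Figure D4:**
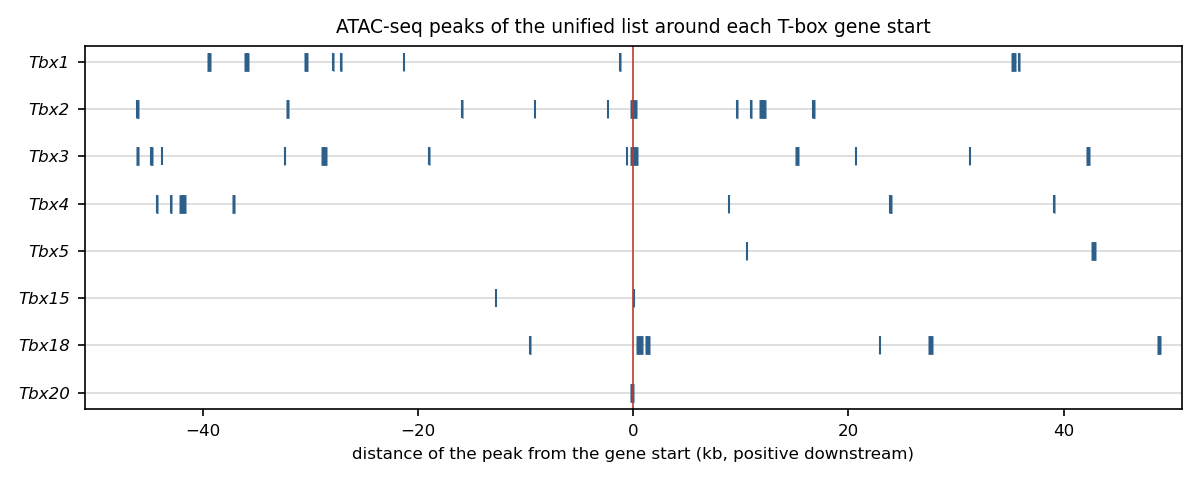
Peaks of the deposited ATAC-seq list within 50 kb of the start of each member, as distance from the start in kb in the direction of transcription; each bar is a peak. Tbx3 has 12 peaks, Tbx2 has 10 and Tbx20 has 1, and Tbx2, Tbx3 and Tbx20 have one over the start.

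Over the 12 fetal libraries, the genes outside the family with the pattern most like that of Tbx2 were Foxc2 (Pearson r 0.970 of log2 CPM), a mesenchymal forkhead factor, Sfrp5 (r 0.969), a secreted Wnt antagonist, and Itga3 (r 0.965), an integrin subunit, among 1006 genes compared. Foxc2 had means of 7.24 and 7.60 CPM in females and males at E14.5 and 2.52 and 3.87 CPM at E16.5, and Itga3 had 31.2, 33.4, 10.1 and 15.3 CPM in the same order. For Tbx3, which varied less (SD 0.21 against 0.59 log2 units for Tbx2), they were Elmo1 (r 0.838), Dusp4 (r 0.834) and Pou3f1 (r 0.799). Tbx2 and Tbx3 had r 0.80 with each other, and Tbx2 and Tbx18 had r -0.76. These correlations describe 12 libraries that share the 2 ages.

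Of 9 other T-box genes, 5 passed the fetal filter and 2 the uterine one. Mga, a very large protein with a T-box and a second DNA-binding domain, was at 253.5 to 269.8 CPM in the fetal group means, and the other 4 tested genes were each under 3 CPM. With age, 1 of the 5 rose in females (Tbx22), and 1 rose (Tbx22) and 2 fell in males, where 39.6% and 23.3% of all genes were called. The 2 were Tbx6 (2.67 to 1.67 CPM, log2 difference -0.69, edgeR adjusted p = 0.00935) and Tbr1 (0.467 to 0.150 CPM, -1.60, adjusted p = 0.0119). Between the sexes edgeR called 0 of the 5 at E14.5 (2 at an unadjusted p under 0.05, and 1, Tbx22, by DESeq2) and at E16.5 again 0 (1 with its unadjusted p under 0.05, 0 by DESeq2). In the uterus Mga was higher in Amhr2+ cells by 0.19 (257.5 against 226.3 CPM, adjusted p = 0.0363), a call lost without any 1 of 5 of the 6 libraries (adjusted p 0.128, 0.0973 and 0.0648 without Amhr2+ replicates 1, 2 and 3, 0.101 and 0.0868 without Gli1+ replicates 1 and 3). The median log2 difference of the list was -0.07 in the female and -0.21 in the male age comparison, beside 0.00 and -0.01 for all tested genes.

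Among 12 genes known as partners or upstream factors of T-box proteins, 9 were tested in the fetal table. Between E14.5 and E16.5, 3 rose and 3 fell in females and 0 rose and 3 fell in males (median log2 difference -0.69 and -0.02), where 39.6% and 23.3% of all tested genes were called. In males the 3 were Sall1, a zinc-finger factor (4.51 to 0.556 CPM, log2 difference -2.97, adjusted p = 5.31e-06), Hand2, a basic helix-loop-helix factor (12.6 to 6.19 CPM, -1.03, adjusted p = 0.00138), and Foxc2. In females Foxc2 fell by 1.52 on the log2 scale (adjusted p = 0.000308), and in males it fell by 0.99 (adjusted p = 0.00751). At E14.5, 1 was higher in each sex (6.28% of all genes called). At E16.5 (27.3% of all genes called), 2 were higher in females, Sall1 (14.2 against 0.556 CPM, log2 difference 4.62, adjusted p = 4.30e-08), and Hand2 (1.03, adjusted p = 0.00125). Foxc1, a forkhead factor, was among the 2 higher in males (14.01 against 6.37 CPM, -1.14, adjusted p = 0.00102), the other being Gata4. The sex by age difference was called for 2 of 9, Sall1 and Smarcd3, a chromatin remodelling subunit (10% of all genes called).

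In the uterus 7 of these 12 genes were tested, and 2 were higher in each population (median -0.02, all genes -0.00), where 23.9% of all genes were called. Sall1 (171 against 49.4 CPM, log2 difference 1.79, adjusted p = 0.000256) and Hand2 (112.5 against 43.3 CPM, 1.38, adjusted p = 0.000463) were higher in Amhr2+ cells. Gata6, a zinc-finger factor (8.60 against 44.98 CPM, -2.38, adjusted p = 7.74e-06), and Foxc2 (0.0625 against 1.12 CPM, -4.01, adjusted p = 0.00484) were higher in Gli1+ cells, the side of Tbx18.

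Of 14 genes known downstream of T-box factors, 8 were tested in the fetal table and 9 in the uterine one. With age, 3 rose and 0 fell in females and 4 rose and 2 fell in males (medians 0.31 and 0.23), where 39.6% and 23.3% of all genes were called. Fgf10, a mesenchymal growth factor under Tbx4 and Tbx5 in lung and limb, rose by 2.81 in females (4.80 to 33.5 CPM, adjusted p = 1.63e-10) and by 1.71 in males (14.1 to 46.2 CPM, adjusted p = 1.31e-08). Mef2c, a muscle transcription factor, rose by 1.37 in males (20.3 to 52.5 CPM, adjusted p = 9.08e-08). Shisa3, an inhibitor of Wnt and FGF signalling, rose by 1.17 in females (18.8 to 42.1 CPM, adjusted p = 3.78e-05). In males Shisa3 fell by 0.57 (11.3 to 7.55 CPM, edgeR adjusted p = 0.0191). The other gene that fell in males was Gja1 (43.8 to 26.7 CPM, -0.71, edgeR adjusted p = 0.000108).

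Between the sexes, 3 of these 8 genes were higher in females and 1 in males at E14.5, and 3 were higher in each sex at E16.5 (medians 0.24 and 0.08), where 6.28% and 27.3% of all genes were called. Frzb, a secreted Wnt antagonist, was higher in females at both ages (1.01, adjusted p = 0.00233, and 1.46, adjusted p = 7.83e-06). Fgf10 was higher in males at E14.5 (-1.56, adjusted p = 1.07e-06) and by less at E16.5 (-0.46, edgeR adjusted p = 0.00237). Shisa3 (0.75, edgeR adjusted p = 0.0105) and Gja1 (0.63, edgeR adjusted p = 0.0015) were higher in females already at E14.5. At E16.5 Shisa3 (42.1 against 7.55 CPM, 2.49, adjusted p = 4.40e-08) and Gja1, the gap junction protein connexin (63.8 against 26.7 CPM, 1.26, adjusted p = 2.35e-07), were higher in females, and Mef2c was higher in males (52.5 against 22.9 CPM, -1.20, adjusted p = 2.35e-07).

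In the uterus 1 of the 9 was higher in Amhr2+ and 3 in Gli1+ cells (median -0.15, all genes -0.00), where 23.9% of all genes were called. Gja1 was the gene higher in Amhr2+ cells (374 against 159.8 CPM, log2 difference 1.23, adjusted p = 3.06e-05). Shisa3 had means of 0.161 CPM in Amhr2+ and 15.3 CPM in Gli1+ cells (-6.61, adjusted p = 1.02e-05), a difference of the same sign as that of Tbx18 in these libraries. Hapln1, a link protein of the hyaluronan matrix, was also higher in Gli1+ cells (2.92 against 17.1 CPM, -2.54, adjusted p = 3.06e-05), and Snai2, a zinc-finger repressor, by 0.58 (35.0 against 52.5 CPM, adjusted p = 0.00143).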

How the data were processed

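RNA was measured in 18 libraries, and the authors deposited raw counts per gene in a fetal table (12 libraries, non-stranded kit per the labels' protocols) and a uterine table (6 libraries, stranded kit). The tables were analysed apart, and 0 columns could not be mapped to a sample. Per the submitters' processing notes, which give no role or order, STAR 2.5, featureCounts, Subread 1.5.0-p1, Bowtie 1.2, SAMtools 1.3.1, Picard, bedtools 2.24.0 and MACS2 2.1.1 were used with build mm10; the gene annotation and the strand setting of the counting are not given in the sources used here. Genes that overlap another are therefore uncertain. The ATAC-seq file holds peak positions only.

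Counts were filtered with filterByExpr, scaled by TMM and tested with edgeR 4.0.16 (quasi-likelihood, robust, limma 3.58.1, R 4.3.3), all 4 fetal groups in a single model, with Benjamini-Hochberg adjustment over all genes tested and a threshold of 0.05. CPM is the deposited count scaled to the TMM-adjusted library total. The SE is the log2 difference divided by the square root of F. DESeq2 1.42.0, scaling by library size alone, no filter, a fit of only the libraries compared, a replicate block and leaving out each library were alternatives. The steps were tested on simulated data.

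Deviations from the group means had r 0.28, 0.11 and 0.40 between same-numbered female and male libraries at E16.5, where different numbers gave -0.34 to 0.11. At E14.5 same-numbered libraries had 0.07, 0.05 and 0.05, against -0.04 to -0.01 for different numbers. In the uterus they had 0.00, 0.22 and 0.24, against -0.24 to 0.13. Between ages they had -0.08 to 0.04, against -0.09 to 0.11. Whether the numbers pair the libraries was left unsettled. The main fits had no block, and the replicate block was an alternative. Exon lengths and gene positions come from GENCODE on mm10, promoters from the RefSeq table (GRCm38.p6). List genes were named if called, 2-fold or more changed, and at a mean of 10 CPM or above in 1 of the groups. Others were named where a count of calls was 5 or fewer. Added after their values were seen were Foxc2 in the female age comparison and Fgf10 in the E16.5 sex comparison. So were Shisa3 and Gja1 in the E14.5 sex and male age comparisons. Likeness used log2(CPM + 0.5) over genes with a highest group mean of at least 5 CPM and an SD of at least 0.5. The members, lists and rules were chosen with earlier results of these data known.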

Additional observations from a re-analysis of the deposited data

Results flagged for a closer look

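The test of whether the age change differed between the sexes was called for the genes given here, none of them among the 8 members. Log2 values are for females minus males, and the share of all genes called in this test is given above. Fgf10 had 1.10 (SE 0.155, edgeR adjusted p = 0.000228). Sall1 had 3.58 (SE 0.373, adjusted p = 3.27e-05): its mean went from 9.35 to 14.2 CPM in females and from 4.51 to 0.556 CPM in males. Shisa3 had 1.74 (SE 0.222, adjusted p = 0.000149), from 18.8 to 42.1 CPM in females and from 11.3 to 7.55 CPM in males. Mef2c had -1.17 (SE 0.143, adjusted p = 6.45e-05), and Gja1 had 0.62 (SE 0.145, adjusted p = 0.0110). Tbx22 had 2.86 (SE 0.789, adjusted p = 0.0293) on few counts, and Smarcd3 had 0.51 (SE 0.1435, adjusted p = 0.0320).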

How the results depend on the processing

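For the 5 and 4 tested members, 308 of 338 recomputed fold changes kept direction and side of the threshold, 24 changed sign, 5 lost and 1 gained a call. The lost calls are those of Tbx3 in females given above. The number of members called went from 1 to 2 in the uterus with library size alone (Tbx4 added). With age it went from 3 to 2 in females in the fits that lost Tbx3, and from 2 to 3 in males (Tbx1 added) with no low-count filter and without E14.5 male replicate 3 or any 1 of the E16.5 male libraries. It was the same in the other fits of these 3 comparisons. The replicate block changed 0 of 29 member results. Sign changes came from leaving out single libraries and concerned differences that were not called: over those fits the E14.5 sex difference ranged from -0.16 to 0.09 (Tbx2), -0.04 to 0.36 (Tbx4), -0.43 to 0.57 (Tbx15) and -0.81 to 0.12 (Tbx18), the E16.5 one from -0.05 to 0.15 (Tbx3) and -0.29 to 0.33 (Tbx15), the sex by age difference from -0.21 to 0.05 (Tbx3), -0.03 to 0.65 (Tbx4), -0.53 to 0.52 (Tbx15) and -0.30 to 0.62 (Tbx18), and the uterine Tbx3os1 difference from -0.28 to 0.07. The cause was not tested. Tbx18 stayed called in every alternative run, from 1.66 to 2.15 in females, 1.29 to 2.21 in males and -6.37 to -5.76 in the uterus.

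Over all genes, the E14.5 sex count of 1121 was 553 to 686 without 5 single libraries, the sex by age count of 1790 was 2687 without E16.5 male replicate 1, and the uterine count of 3866 fell to 1949 when Amhr2+ replicate 1 was left out and to 2521 when Gli1+ replicate 1 was. Scaling by library size alone moved the split of risen to fallen genes from 2340 and 1827 to 1847 and 2641 in the male age comparison, from 3746 and 3321 to 3131 and 3923 in the female one, and of Amhr2+-higher to Gli1+-higher genes from 1642 and 2224 to 2849 and 1640. Depth limits Tbx1, Tbx5, Tbx15 and Tbx20, whose groups hold few counts. It also limits Tbx4 in the fetal groups (28 to 48 summed counts). The same holds for Tbx18 at E14.5 (25 in females, 41 in males) and in Amhr2+ cells (9).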
